A study of Caenorhabditis elegans with 12 samples.

Results

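The genes described here are 10 core genes of programmed cell death in Caenorhabditis elegans, taken from the 25122 genes of the expression table by their symbols. They include egl-1, ced-9, ced-4 and ced-3, called the death triggers here although ced-9 encodes an inhibitor. The others are the engulfment genes ced-1, ced-6, ced-7 and ced-10, the phosphatidylserine exposure gene ced-8 and the DNA degradation gene cps-6. All 10 were present in the table, and their mean level over all libraries lay between 9.95 and 13.57 on the rlog scale, a log2 scale on which differences of genes with few reads are shrunk. Eggs of 3 genotypes were sequenced, each in 4 libraries. The triple mutant (daf-16;daf-2;bcl-11) carried mu86 in daf-16, e1370 in daf-2 and bon125 in bcl-11, the double mutant (daf-2;bcl-11) was labelled as carrying e1370 and bon125, and the third genotype carried e1370 alone. Every library thus carried daf-2(e1370), an allele that lowers the activity of the insulin/IGF receptor, and no wild-type eggs were analysed here. bcl-11 encodes the worm homologue of the zinc-finger proteins BCL11A and BCL11B, and daf-16 the FOXO factor that insulin signalling restrains. Parents were grown at 20°C on OP50-1 bacteria, and eggs were freed by bleaching and kept at 27°C for 2 h before Smart-seq2 libraries were made from 5 ng of RNA. Each genotype was 1 strain, and the replicate number of a library is also its batch in the labels.

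In C. elegans, somatic cells fated to die produce EGL-1, a BH3-only protein that binds the Bcl-2 family protein CED-9 on mitochondria. This frees the Apaf-1-like adaptor CED-4, which activates the caspase CED-3, and most of these deaths fall in the embryo. Dying cells then expose phosphatidylserine, are taken up by neighbouring cells through partly parallel engulfment pathways, and have their DNA cut by nucleases such as CPS-6.

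daf-16 went against the label of 1 genotype. It averaged 9.72 ± 0.14 rlog in the triple mutant and 9.52 ± 0.06 in the labelled double mutant, against 12.12 ± 0.15 in daf-2 (SD, n = 4 each). It was thus as low in libraries whose label has no mu86 allele as in those with it, and the 4 libraries are therefore called the labelled double mutant throughout, and each direction stated for them depends on it. bcl-11 averaged 9.10 ± 0.72, 9.28 ± 0.18 and 10.15 ± 0.37 rlog in the same order of genotypes (SD, n = 4 each). Library medians over all genes were 5.77 to 5.95 in the triple mutant, 5.92 to 6.01 in the labelled double mutant and 6.36 to 6.50 in daf-2. Centring each library on that median raised every log2 difference by 0.54 for the triple mutant against daf-2 and by 0.43 for the labelled double mutant against daf-2. The share of higher genes among all calls was 28.3% as deposited, 82.3% after centring and 46.3% after quantile normalization in the first comparison, and 31.9%, 78.3% and 45.9% in the second. Markers of embryonic stage also differed between the genotypes and are given with their values after the results on the members. Replicates are not described as separate cultures, so p-values measure only the spread between these libraries, which may be technical.

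Transcripts of ced-9, ced-4, ced-3 and ced-10 were higher in triple mutant eggs than in daf-2 eggs, by 1.61- to 1.86-fold. In the labelled double mutant, ced-9 was the member that rose past the same limits, by 1.69-fold. A gene was called when limma with Benjamini-Hochberg adjustment over all genes gave an adjusted p below 0.05 and the change exceeded 1.5-fold. By this rule 4 of 10 members were called against daf-2 in the triple mutant, beside 22.5% of all genes, and 1 of 10 in the labelled double mutant, beside 22.0%. All calls of members were upward, while calls upward made up 6.38% of all genes tested in the first comparison and 7.00% in the second. Among the 5962 genes whose mean level lay in the range of the members, 28.4% and 29.8% were called, and 15.9% and 16.8% were called higher. Adjusted p alone was below 0.05 for 5 members in the triple mutant, beside 31.7% of all genes and 50.5% of genes in that range. In the labelled double mutant it was so for 4 members, beside 29.4% and 46.5%. The triple mutant differed from the labelled double mutant in no member by this rule, beside 0.0119% of all genes called. The comparisons against daf-2 share the same 4 daf-2 libraries.

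**Figure D1:**
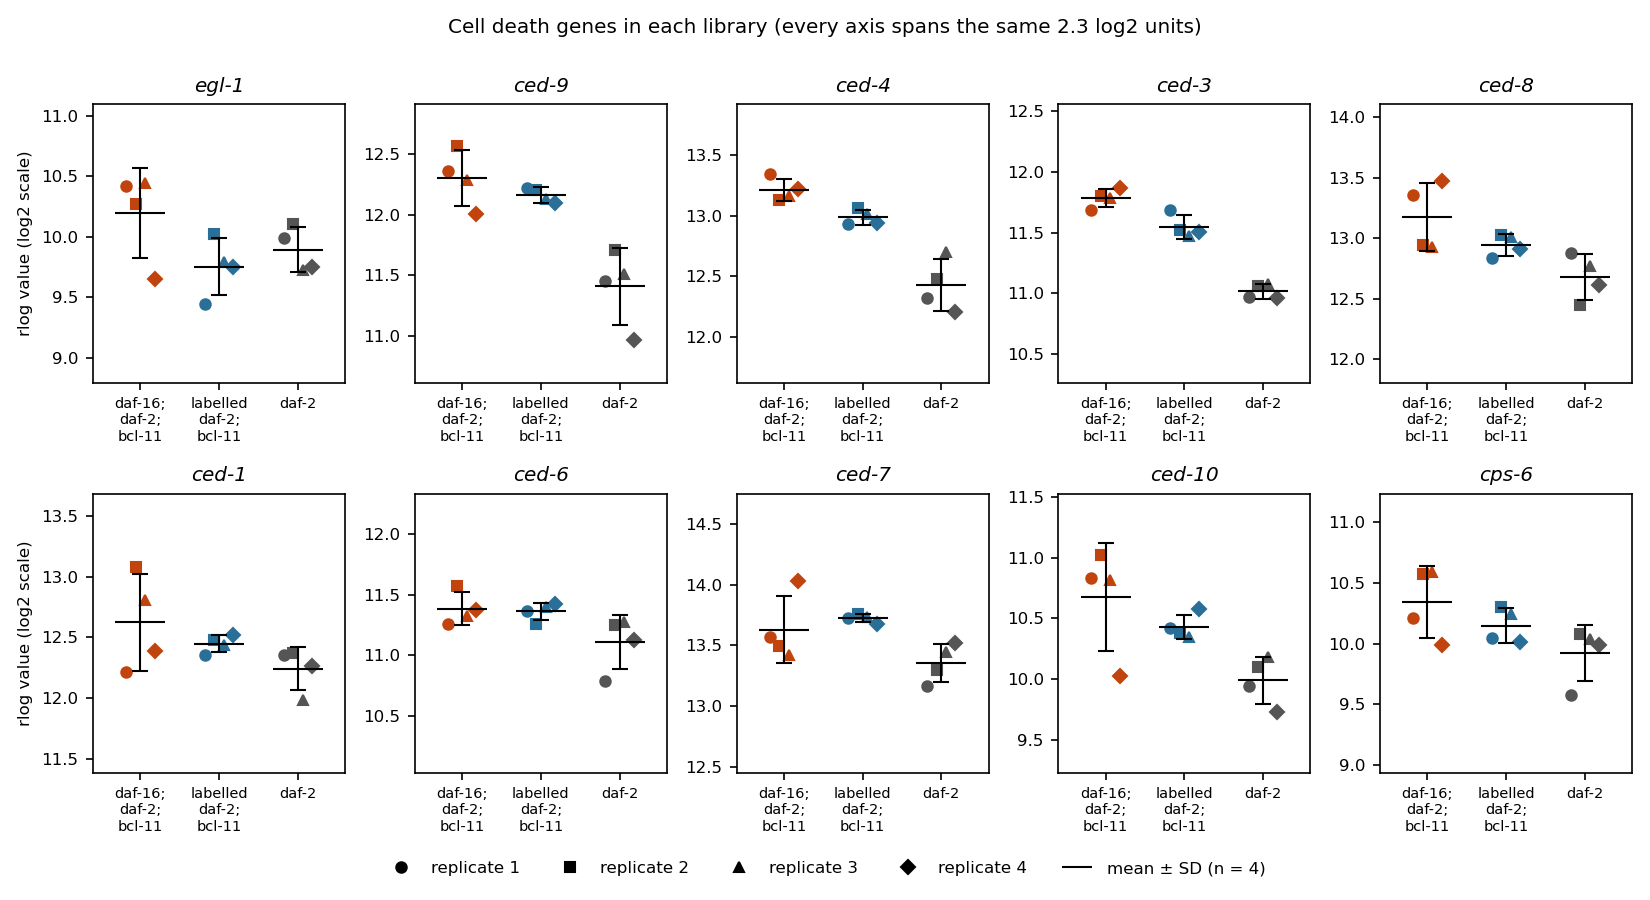
rlog level of the 10 members (vertical axis, log2 scale) in each of 12 libraries, 1 panel per gene, with the triple mutant at the left, the labelled double mutant in the middle and daf-2 at the right, the symbol shape giving the replicate and the bars the mean ± SD (n = 4). ced-9, ced-4 and ced-3 lay above all daf-2 libraries in both other genotypes, while the egl-1 values of the 3 genotypes overlapped.

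Among the death triggers, egl-1 (WBGene00001170) lies on chromosome V:14431308-14432359 of WBcel235, minus strand. It was at 10.41, 10.27, 10.45 and 9.65 rlog in replicates 1 to 4 of the triple mutant, at 9.45, 10.02, 9.79 and 9.75 in the labelled double mutant, and at 9.99, 10.11, 9.72 and 9.75 in daf-2. Replicates 1 to 3 of the triple mutant were the highest of the 12 libraries, and its replicate 4 was lower than every daf-2 library. The log2 difference from daf-2 was 0.30 in the triple mutant (95% interval -0.10 to 0.71, adjusted p = 0.258, limma with Benjamini-Hochberg adjustment). Without replicate 4 of the triple mutant this difference was 0.49 (adjusted p = 0.0299), still under 1.5-fold. In the labelled double mutant the log2 difference of egl-1 from daf-2 was -0.14 (95% interval -0.55 to 0.27, adjusted p = 0.622, limma), and it was 0.29 after centring on the median and 0.01 after quantile normalization, so its sign depended on the scaling. Because whole eggs were measured, fewer cells that express a gene and less RNA per cell cannot be told apart for egl-1 or any other member.

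ced-9 (WBGene00000423), the inhibitor that EGL-1 binds, lies on chromosome III:10335172-10337522, plus strand. It was at 12.36, 12.57, 12.28 and 12.01 rlog in the triple mutant, at 12.22, 12.21, 12.13 and 12.09 in the labelled double mutant, and at 11.45, 11.71, 11.51 and 10.96 in daf-2. Every library of the first 2 genotypes was above every daf-2 library, with daf-2 replicate 4 the lowest of all. ced-9 rose by 0.90 on the log2 scale (SE 0.16, adjusted p = 0.000641, 1.86-fold) in the triple mutant and by 0.75 (SE 0.16, adjusted p = 0.00269, 1.69-fold) in the labelled double mutant, each against daf-2 by limma with Benjamini-Hochberg adjustment and in 4 of 4 batches. The difference between the triple mutant and the labelled double mutant was 0.14 (95% interval -0.20 to 0.48).

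ced-9 is the downstream gene of an operon with mev-1 (WBGene00003225), which encodes a cytochrome b subunit of mitochondrial complex II and ends 3 bases before ced-9 begins. mev-1 lies on chromosome III:10334277-10335168, plus strand, with a piRNA gene on the opposite strand. mev-1 differed from daf-2 by 0.25 on the log2 scale in the triple mutant (adjusted p = 0.114) and by 0.25 in the labelled double mutant (adjusted p = 0.109, limma), and passed the test in neither. ced-9 minus mev-1 within a library averaged 0.23 ± 0.25 rlog in the triple mutant, 0.08 ± 0.07 in the labelled double mutant and -0.42 ± 0.25 in daf-2 (SD, n = 4 each). This difference was higher than in daf-2 by 0.65 in the triple mutant and by 0.50 in the labelled double mutant, with two-sided exact permutation p = 0.0286 for each, the smallest that 70 arrangements can give. ced-9 thus moved more than its operon neighbour in the same libraries, a comparison in which an amount added to all genes of a library cancels. The permutation test was run only for ced-9, the member with the largest rise, and its p-values were not adjusted. Both comparisons also share the daf-2 libraries.

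ced-4 (WBGene00000418), the adaptor that CED-9 holds inactive, lies on chromosome III:4852325-4855171, plus strand. Its rlog levels were 13.34, 13.13, 13.16 and 13.22 in the triple mutant, 12.93, 13.07, 13.01 and 12.94 in the labelled double mutant, and 12.32, 12.48, 12.71 and 12.20 in daf-2. No value of ced-4 was shared between the ranges of any pair of genotypes. ced-4 rose by 0.79 on the log2 scale in the triple mutant (SE 0.12, adjusted p = 0.000178, 1.73-fold, limma) against daf-2, a call lost at 0.53 after quantile normalization. In the labelled double mutant the difference was 0.56 (SE 0.12, adjusted p = 0.00255, limma), which at 1.48-fold did not exceed the fold limit, and without daf-2 replicate 3 it was 0.65 and did.

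ced-3 (WBGene00000417), the caspase that carries out the death, lies on chromosome IV:13198261-13204137, minus strand, and overlaps the non-coding gene C48D1.12 on the other strand. The libraries keep no strand, so reads from any exon stretch that both genes share could not be told apart. Only whole gene spans were compared, and whether exons overlap was not examined. The same holds for every other gene given here with an overlap on the other strand. ced-3 was at 11.69, 11.80, 11.78 and 11.86 rlog in the triple mutant, at 11.68, 11.52, 11.47 and 11.50 in the labelled double mutant, and at 10.96, 11.06, 11.08 and 10.96 in daf-2. The ranges of the 3 genotypes did not overlap, although the closest libraries of the triple mutant and the labelled double mutant differed by little. ced-3 rose by 0.77 on the log2 scale in the triple mutant (SE 0.11, adjusted p = 0.000106, 1.70-fold, limma) against daf-2. The difference in the labelled double mutant was 0.53 (SE 0.11, adjusted p = 0.00201, limma), below 1.5-fold at 1.45-fold.

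**Figure D2:**
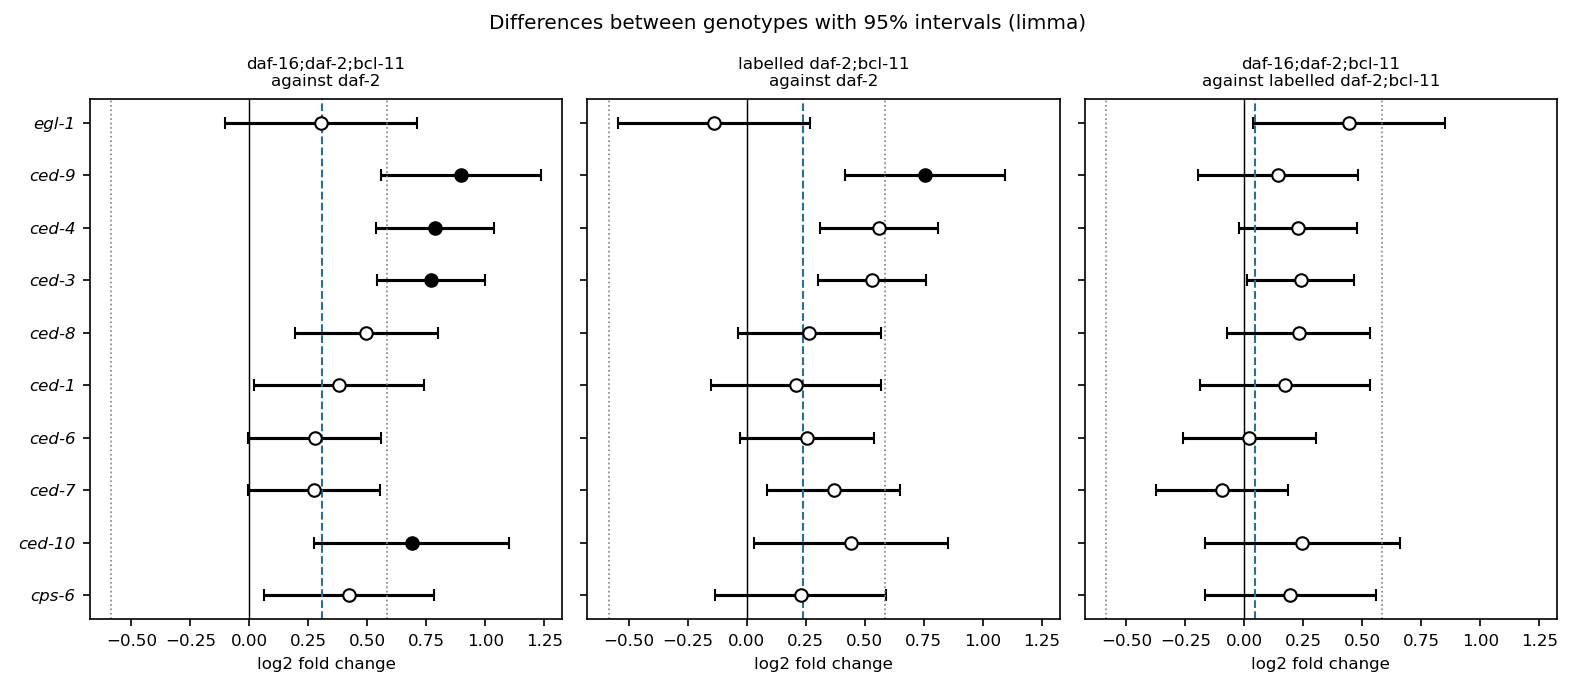
log2 difference (horizontal axis) of each of 10 members with its 95% interval in the 3 comparisons, filled points for genes called by adjusted p and 1.5-fold change, dotted lines at 1.5-fold and a dashed line at the median of genes in the members' range of levels. ced-9, ced-4, ced-3 and ced-10 were called for the triple mutant against daf-2, ced-9 for the labelled double mutant against daf-2, and no member between the triple and the labelled double mutant.

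Of the differences computed between triggers within a library, only that of ced-9 and egl-1 set every daf-2 library apart. ced-4 and ced-3 were not set against egl-1, so a shift particular to ced-9 and egl-1 is not shown. ced-9 minus egl-1 was 1.95, 2.29, 1.84 and 2.36 rlog in the triple mutant, 2.78, 2.19, 2.34 and 2.34 in the labelled double mutant, and 1.46, 1.60, 1.79 and 1.21 in daf-2. Every library with the bcl-11 allele in its label was above every daf-2 library, the nearest pair being 1.84 and 1.79. ced-3 minus ced-4, by contrast, averaged -1.43 ± 0.15 in the triple mutant, -1.44 ± 0.14 in the labelled double mutant and -1.41 ± 0.16 in daf-2 (SD, n = 4 each). In the same order, ced-4 minus ced-9 averaged 0.91, 0.83 and 1.02. For ced-3 minus ced-9 the means were -0.52, -0.62 and -0.39, and the ranges of both differences overlapped between genotypes. These are differences within 1 library between genes of unlike length, so their size is not a ratio of molecules and they are read only between genotypes.

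**Figure D3:**
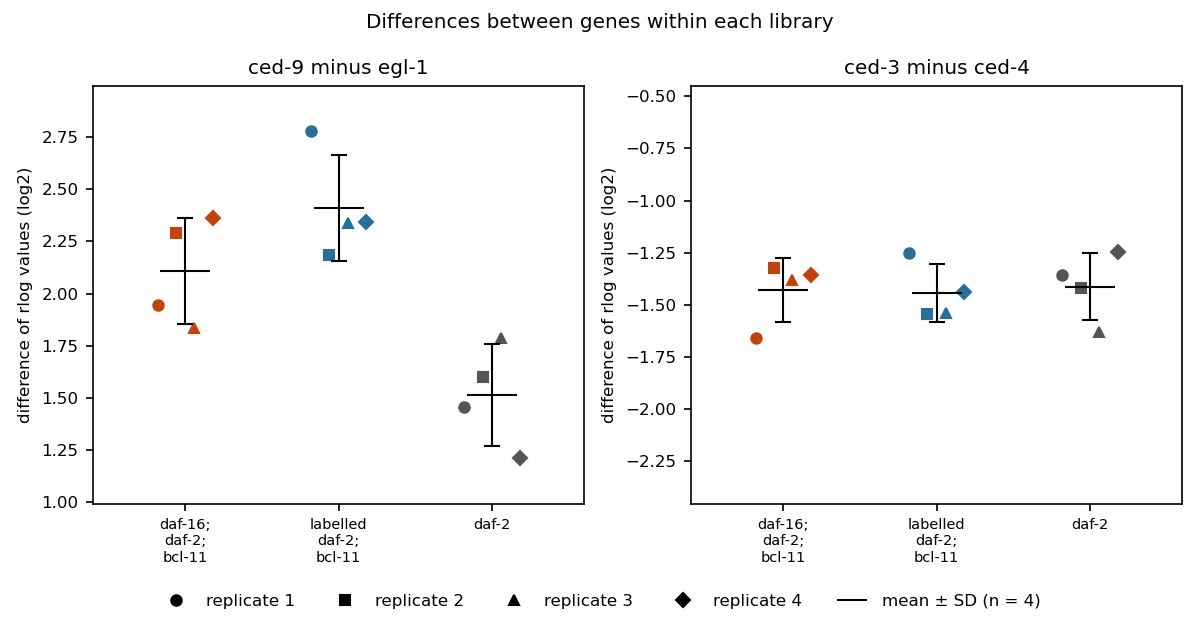
Differences in rlog level between pairs of members within each library (vertical axis, log2 scale), with the triple mutant at the left, the labelled double mutant in the middle and daf-2 at the right, and bars at the mean ± SD (n = 4). ced-9 minus egl-1 was above 1.79, the highest daf-2 value, in all 8 other libraries, while ced-3 minus ced-4 overlapped in all genotypes.

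Among the engulfment genes, ced-10 (WBGene00000424), the Rac GTPase on which cytoskeletal changes of the engulfing cell depend, was called in 1 comparison. It lies on chromosome IV:3506328-3509527, minus strand, and overlaps the non-coding gene C09G12.18 on the other strand. Its rlog levels were 10.84, 11.02, 10.82 and 10.02 in the triple mutant, 10.42, 10.38, 10.35 and 10.58 in the labelled double mutant, and 9.94, 10.10, 10.18 and 9.73 in daf-2. Replicate 4 of the triple mutant fell among the daf-2 libraries, and the other 3 were above all of them. ced-10 rose by 0.69 on the log2 scale in the triple mutant against daf-2 (SE 0.19, adjusted p = 0.0131, 1.61-fold, limma). The call was lost in a fit of these 2 genotypes alone (adjusted p = 0.0517) and without triple mutant replicate 2 (0.57, under 1.5-fold), and the difference was 0.90 without its replicate 4. In the labelled double mutant the ced-10 difference from daf-2 was 0.44 (95% interval 0.03 to 0.85, adjusted p = 0.102, limma), with no overlap of the libraries. Its adjusted p there was 0.0197 in a limma fit of these 2 genotypes alone, still under 1.5-fold. With 1 library left out it was above 0.05 in 11 of 12 fits.

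ced-1, ced-6 and ced-7 act together in the other engulfment pathway. ced-1 (WBGene00000415), the receptor that recognises cell corpses, lies on chromosome I:11851554-11868105, minus strand. It ranged from 12.21 to 13.08 rlog in the triple mutant, from 12.36 to 12.52 in the labelled double mutant and from 11.98 to 12.37 in daf-2. Its log2 difference from daf-2 was 0.38 in the triple mutant (adjusted p = 0.103) and 0.21 in the labelled double mutant (adjusted p = 0.387, limma), the second being -0.00033 after quantile normalization.

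ced-6 (WBGene00000420), the adaptor that binds CED-1, lies on chromosome III:5595771-5598061, plus strand, and overlaps wdr-37 on the other strand. Its levels were 11.26 to 11.58 rlog in the triple mutant, 11.26 to 11.43 in the labelled double mutant and 10.79 to 11.27 in daf-2. The log2 difference of ced-6 from daf-2 was 0.28 in the triple mutant (adjusted p = 0.131) and 0.25 in the labelled double mutant (adjusted p = 0.169, limma). Neither passed the test.

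ced-7 (WBGene00000421), an ABC transporter needed in both the dying and the engulfing cell, lies on chromosome III:9570390-9580089, minus strand, and overlaps C48B4.13 on the other strand. It was at 13.57, 13.50, 13.42 and 14.03 rlog in the triple mutant, at 13.73, 13.76, 13.73 and 13.68 in the labelled double mutant, and at 13.17, 13.30, 13.45 and 13.52 in daf-2. Replicate 4 of the triple mutant was the highest library. Its replicate 1 was just above every daf-2 library, and replicates 2 and 3 lay within the daf-2 range. The log2 difference of ced-7 from daf-2 was 0.27 in the triple mutant (adjusted p = 0.134, limma), and it was -0.01 after quantile normalization. In the labelled double mutant it was 0.37 (adjusted p = 0.0474, limma), below 1.5-fold, with no overlap, and it was 0.16 (adjusted p = 0.414) after quantile normalization. With 1 library left out its adjusted p was above 0.05 in 8 of 12 fits and at most 0.116. In a limma fit of these 2 genotypes alone its adjusted p was 0.0108.

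The remaining members act in the dying cell. ced-8 (WBGene00000422), an Xk-related membrane protein that promotes phosphatidylserine exposure once the caspase has cut it, lies on chromosome X:8414006-8416919, minus strand, and overlaps F08F1.4 on the other strand. It ranged from 12.93 to 13.47 rlog in the triple mutant, from 12.84 to 13.02 in the labelled double mutant and from 12.45 to 12.88 in daf-2. The log2 difference from daf-2 was 0.50 in the triple mutant (adjusted p = 0.0146, limma), below 1.5-fold with no overlap, and 0.26 in the labelled double mutant (adjusted p = 0.182). After quantile normalization these ced-8 differences were 0.25 (adjusted p = 0.225) and 0.06 (adjusted p = 0.810), and without daf-2 replicate 2 the first was 0.42 (adjusted p = 0.0507), and without batch 4 it was 0.38 (adjusted p = 0.102). cps-6 (WBGene00000787), the mitochondrial endonuclease G that degrades chromosomal DNA, lies on chromosome I:4446586-4448461, minus strand, and overlaps eif-3.H on the other strand. It ranged from 9.99 to 10.59 rlog in the triple mutant, from 10.01 to 10.30 in the labelled double mutant and from 9.57 to 10.08 in daf-2. cps-6 differed from daf-2 by 0.42 on the log2 scale in the triple mutant (adjusted p = 0.0728) and by 0.23 in the labelled double mutant (adjusted p = 0.344, limma). It was called in the triple mutant after quantile normalization, at 0.61 (adjusted p = 0.0238), so the number of members called there stayed at 4 with cps-6 gained and ced-4 lost, and without triple mutant replicate 4 it was 0.54 (adjusted p = 0.0194), under 1.5-fold.

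Over all members, the median log2 difference from daf-2 was 0.46 in the triple mutant, against -0.01 over all genes and 0.31 over genes in the members' range of levels. In the labelled double mutant the median of the members was 0.32, against -0.02 over all genes and 0.24 over genes in that range. Of the members, 10 of 10 lay above 0 in the triple mutant and 9 of 10 in the labelled double mutant, where 74.2% and 69.7% of genes in the members' range did so. The median of the 4 triggers, a set that includes the inhibitor ced-9, was 0.78 in the triple mutant and 0.55 in the labelled double mutant. In these comparisons the triggers ranged from 0.30 for egl-1 to 0.90 for ced-9, and from -0.14 for egl-1 to 0.75 for ced-9. The median of the 4 engulfment genes was 0.33 and 0.31. Libraries did not overlap with daf-2 for 4 members in the triple mutant, beside 29.8% of all genes, and for 5 in the labelled double mutant, beside 35.3%. After centring on the library median 10 and 9 members were called higher in these comparisons, beside 37.6% and 26.7% of all genes. The share after centring was not computed for genes in the members' range, whose medians were already 0.31 and 0.24 before it.

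The triple mutant and the labelled double mutant differed in no member by limma with Benjamini-Hochberg adjustment, where the lowest adjusted p was 0.787. At an unadjusted p below 0.05, 2 members remained, egl-1 and ced-3, beside 6.03% of all genes. Their log2 differences were 0.44 (95% interval 0.04 to 0.85) for egl-1 and 0.24 (0.01 to 0.47) for ced-3. The other 8 lay between -0.09 for ced-7 and 0.25 for ced-10, and ced-7 was at 0.02 after centring on the median. Libraries of ced-3 and ced-4 did not overlap in this comparison, beside 4.32% of all genes. A p above the threshold does not show that these genotypes had equal levels.

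Spread between replicates differed by genotype. The SD of a member over 4 libraries had a median of 0.28 rlog in the triple mutant, 0.08 in the labelled double mutant and 0.19 in daf-2. The highest SD was 0.44, for ced-10 in the triple mutant. In that genotype replicate 4 was the lowest library for egl-1, ced-9, ced-10 and cps-6 and the highest for ced-3, ced-7 and ced-8. It was at an extreme for 7 of 10 members, where the 4 libraries of a genotype average 5 and the other 11 libraries ranged from 2 to 6. Without it the same number of members, 4, was called against daf-2, and none against the labelled double mutant, where the count over all genes went to 357 against 3 with it.

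Markers of embryonic stage differed between genotypes and between replicates. The mean of 24 maternally supplied transcripts was 11.70 rlog in replicate 4 of the triple mutant and 10.23 to 10.45 in its other replicates, 11.02 to 11.61 in the labelled double mutant, and 10.98 in replicate 4 of daf-2 and 9.54 to 9.84 in its other replicates. Replicate 4 was thus the highest library of both the triple mutant and daf-2, and without batch 4 the members called were 4 in the triple mutant and 1 in the labelled double mutant, the same numbers as with it. Of these transcripts, 2 of 24 were called higher than in daf-2 in the triple mutant and 18 of 24 in the labelled double mutant. The mean of 23 early zygotic genes was 8.59 to 10.38 rlog in the triple mutant, 9.81 to 10.17 in the labelled double mutant and 8.42 to 9.26 in daf-2, with 5 and 15 of 23 called higher, and 1 lower in the triple mutant. The mean of 24 genes of late embryonic tissues was 12.61 to 13.33, 12.89 to 13.05 and 13.31 to 13.72 rlog in the same order of genotypes, with 14 and 13 of 24 called lower than in daf-2 and 1 higher in each comparison. Of 6 vitellogenin genes, which mark the body of the mother, none was called in either comparison by limma with adjustment, with 0 and 1 at an unadjusted p below 0.05. The part of embryonic stage in the differences of ced-9, ced-4, ced-3 and ced-10 was not tested.

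**Figure D4:**
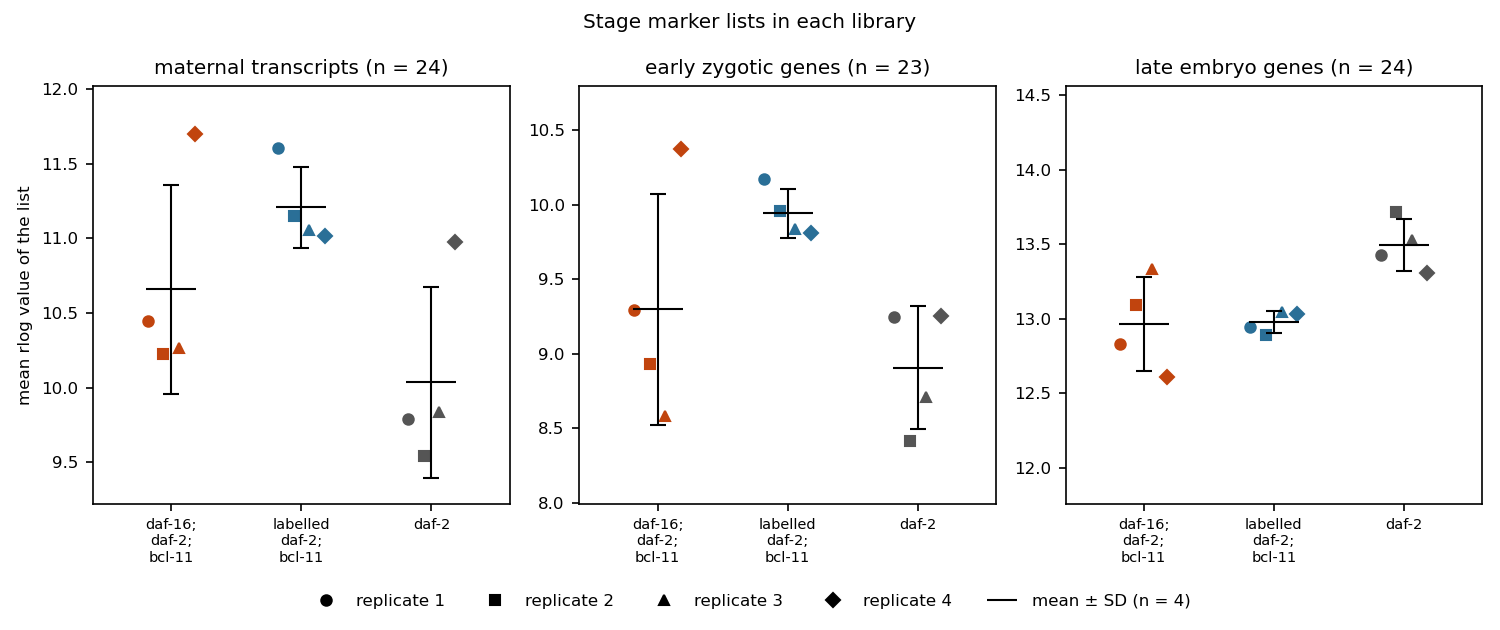
Mean rlog level (vertical axis, log2 scale) of the maternal, early zygotic and late embryonic lists in each library, with the triple mutant at the left, the labelled double mutant in the middle and daf-2 at the right, bars giving the mean ± SD (n = 4). Replicate 4 of the triple mutant had the highest maternal mean of all libraries, 11.70, and the late embryonic mean of each labelled double mutant library was below that of any daf-2 library.

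A wider list of 81 genes that act around the members showed 16 higher and 3 lower in the triple mutant against daf-2 and 12 higher and 3 lower in the labelled double mutant. The calls were 23.5% and 18.5% of the list, beside 22.5% and 22.0% of all genes, and those upward were 19.8% and 14.8%, beside 15.9% and 16.8% of genes in the members' range of levels. Calls numbered 20 genes in at least 1 comparison and 14 in both, which share the daf-2 libraries. Its median log2 difference was 0.41 and 0.29, with 73 and 65 of 81 (90.1% and 80.2%) above 0. Over all genes these medians were -0.01 and -0.02 with 46.9% and 45.3% above 0, and over genes in the members' range 0.31 and 0.24 with 74.2% and 69.7% above 0. The calls depended on the scaling, with 73 and 51 genes called after centring on the median, beside 45.6% and 34.1% of all genes. The share after centring was not computed for genes in the members' range. After quantile normalization 9 and 10 genes were called, beside 19.6% and 19.2% of all genes. Of the genes named here for their calls, none changed sign against daf-2 under these scalings, but after quantile normalization crn-1, crn-4, ced-2, gla-3 and laat-1 kept each call they had, psr-1, crn-7 and unc-86 kept calls in the labelled double mutant, unc-86 also in the triple mutant, and all other calls were lost. Between the triple mutant and the labelled double mutant none of the 81 was called by limma with adjustment, and 4 had an unadjusted p below 0.05.

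Of 6 further genes, loosely grouped here with the core genes, none was called against daf-2 by adjusted p and 1.5-fold change. In each comparison 2 had an unadjusted p below 0.05, cyn-4 and icd-1. The lowest adjusted p of the section was 0.0105 in the triple mutant and 0.00730 in the labelled double mutant (limma), with a change under 1.5-fold. The 2 others named here had low values. ced-13, another BH3-only gene, averaged 2.80 rlog in the triple mutant, 2.67 in the labelled double mutant and 2.82 in daf-2. The sign of ced-13 depended on the scaling, with log2 differences from daf-2 of -0.03 and -0.15 as deposited and 0.51 and 0.28 after centring on the median. csp-1, another caspase gene, averaged 3.09, 3.12 and 2.99 in the same genotypes, and was called in the triple mutant after centring on the median, at 0.64.

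Among 17 upstream regulators of the death decision, 5 were called higher and 1 lower than daf-2 in each genotype, 35.3% of the section beside 22.5% and 22.0% of all genes. The retinoblastoma homologue lin-35 rose by 0.81 on the log2 scale in the triple mutant and by 0.64 in the labelled double mutant. The kinase gene pig-1, which acts in divisions that yield a dying daughter, rose by 0.80 and 0.71. hlh-2, whose bHLH product can activate egl-1, rose by 0.76 and 0.66, and mcd-1, a modifier of cell death with a zinc finger, by 0.76 and 0.62. The lower gene was unc-86, a POU homeobox factor of neuronal lineages, at -0.62 and -0.71, named after its values were seen, and at -0.09 and -0.28 after centring on the median, where it was not called. With libraries left out, calls in the triple mutant were lost for unc-86 without its replicate 1 or 4 or daf-2 replicate 2 (-0.52 to -0.58) or batch 4 (-0.57), and for mcd-1 without batch 4 (adjusted p = 0.0623, limma). Against daf-2, the labelled double mutant's hlh-2 lost its call without daf-2 replicate 1 or 4 (0.58 each) and mcd-1 without any of its own libraries or daf-2 replicate 2, 3 or 4 (0.53 to 0.66), or without batch 4 (0.54).

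Of 8 genes around phosphatidylserine exposure, 1 rose and 1 fell in each genotype, 25% of the section beside 22.5% and 22.0% of all genes. The receptor gene psr-1 rose by 0.59 in the triple mutant and 0.82 in the labelled double mutant. anoh-1, an anoctamin, was at 5.71, 6.88, 6.88 and 7.12 rlog in the triple mutant, at 6.96, 6.65, 7.42 and 6.91 in the labelled double mutant, and at 7.82, 8.14, 8.08 and 7.60 in daf-2. It fell by 1.26 and by 0.92 on the log2 scale, with every library below those of daf-2, and its call in the labelled double mutant was lost after centring on the median (-0.49). It was also lost there without labelled double mutant replicate 1, 2 or 4 or daf-2 replicate 2 or 3 (-0.81 to -0.92), as was that of psr-1 in the triple mutant without its replicate 2 or 4 or daf-2 replicate 1 or 2 (0.52 to 0.56).

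Of 15 further engulfment genes, 3 rose in the triple mutant and 2 in the labelled double mutant, 20.0% and 13.3% of the section beside 22.5% and 22.0% of all genes. ced-2, an adaptor upstream of CED-10, was at 11.04, 10.89, 10.93 and 11.01 rlog in the triple mutant, at 11.25, 10.93, 10.78 and 10.75 in the labelled double mutant, and at 9.70, 10.06, 10.26 and 10.27 in daf-2. Its log2 difference was 0.89 in the triple mutant and 0.86 in the labelled double mutant, with no overlap with daf-2. gla-3, a zinc-finger gene known for limiting germline apoptosis and not for engulfment, rose by 0.86 and 1.29. It was at 10.22, 10.08, 10.13 and 11.46 rlog in the triple mutant, and without replicate 4, the library with the highest maternal mean, its difference there was 0.53 (adjusted p = 0.0672, limma) and was not called. The call was also lost without daf-2 replicate 1, 2 or 3 (0.77 to 0.85). The Frizzled gene mom-5 rose by 0.71 in the triple mutant, and its difference in the labelled double mutant was 0.44.

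Of 25 genes for maturation of the corpse-bearing phagosome, 3 rose in the triple mutant and 1 in the labelled double mutant, 12.0% and 4.00% of the section beside 22.5% and 22.0% of all genes. The sorting nexin gene lst-4 rose by 0.65 and 0.63. rab-7, a GTPase of lysosome fusion, rose by 0.64 in the triple mutant and had a difference of 0.38 in the labelled double mutant. laat-1, a lysosomal amino acid transporter, rose by 0.67 in the triple mutant and stood at 0.39 in the labelled double mutant. Each of these calls was lost with some library left out. In the triple mutant these were daf-2 replicate 1 for lst-4 (0.53), triple mutant replicate 2 for laat-1 (0.57), and triple mutant replicate 2 or 3 or daf-2 replicate 1 or 4 for rab-7 (0.52 to 0.57). For lst-4 in the labelled double mutant they were its replicate 1 and daf-2 replicate 1 (0.57 and 0.51).

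Of 10 further genes of DNA degradation, 4 rose and 1 fell in the triple mutant, and 3 rose and 1 fell in the labelled double mutant, 50.0% and 40.0% of the section beside 22.5% and 22.0% of all genes. crn-1, a FEN-1 nuclease that works with CPS-6 and also in DNA replication, was at 14.33, 14.21, 13.93 and 14.54 rlog in the triple mutant, at 14.68, 14.32, 14.12 and 14.26 in the labelled double mutant, and at 13.31, 13.12, 13.40 and 13.15 in daf-2. It rose by 1.01 and by 1.10 on the log2 scale, with no overlap with daf-2. cyn-13, a cyclophilin gene, rose by 0.75 and 0.74, and the nuclease gene crn-4 by 0.64 and 0.71. The DNase II homologue crn-7 was at 9.28, 8.96, 9.25 and 9.16 rlog in the triple mutant, at 8.89, 8.89, 9.15 and 9.25 in the labelled double mutant, and at 10.28, 9.72, 9.90 and 9.50 in daf-2. It fell by 0.69 and by 0.81, and all libraries lay below those of daf-2, but after centring on the median the differences were -0.15 and -0.38 and neither was called. In the triple mutant crn-7 lost its call without daf-2 replicate 1 (-0.54), and crn-4 without triple mutant replicate 4 (0.57) or batch 4 (0.58).

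**Figure D5:**
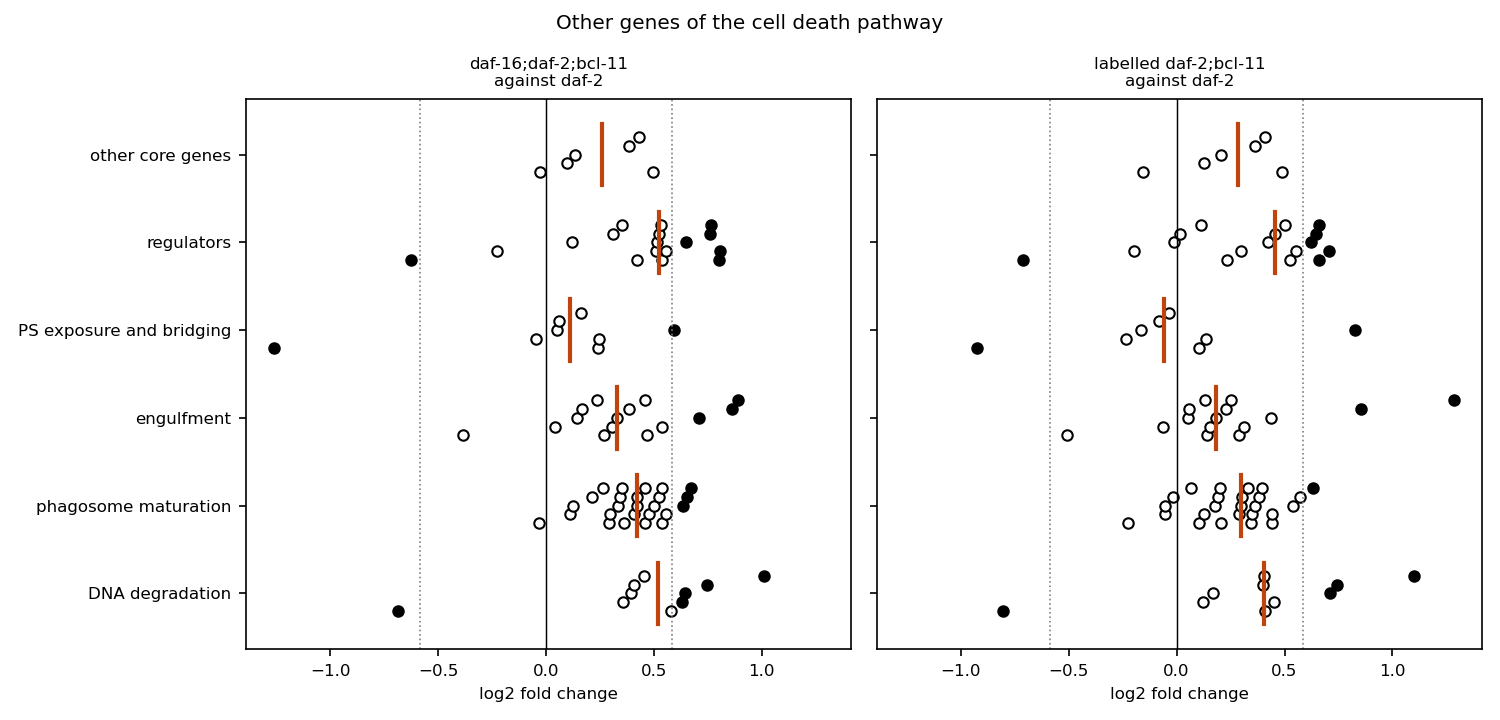
log2 difference (horizontal axis) of each gene in the wider list by section (vertical axis), for the triple mutant and for the labelled double mutant against daf-2, with called genes filled, dotted lines at 1.5-fold and coloured bars at the median of each section. Calls were 16 higher and 3 lower in the triple mutant and 12 higher and 3 lower in the labelled double mutant, out of 81 genes.

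The genes most like egl-1 over the 12 libraries, by the root mean square difference of profiles centred on their means, were eyg-1 (0.134), larp-1 (0.135), tbx-2 (0.139), T21E8.7 (0.139) and cdap-2 (0.142), while the root mean square of the egl-1 profile itself was 0.303. All 5 averaged higher in the triple mutant and lower in the labelled double mutant than in daf-2, with log2 differences of 0.23 to 0.33 and of -0.25 to -0.03. They were picked for likeness to egl-1 in these same libraries, so a shared pattern follows from the choice. Centring on the library median raised every difference of the labelled double mutant from daf-2 by 0.43, so the lower sign depended on the scaling.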

How the data were processed

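RNA of eggs was sequenced in 12 libraries of 3 genotypes. The authors prepared non-stranded Smart-seq2 libraries, and their processing notes name bcl2fastq 2.20, kallisto 048.0 and the build WBcel235. The deposited values are log2-scale rlog values (a regularized-log transformation of normalized counts), which keep no read numbers, so depth is unknown and no counting interval is given. Values were used as deposited. All 25122 identifiers were in the Ensembl 115 annotation, the source of coordinates, and 23471 had a symbol. No pair of libraries held identical values.

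The comparisons used limma 3.58.1 in R 4.3.3 (eBayes with a trend), in 1 model of all 12 libraries without a block. Benjamini-Hochberg adjustment was over all genes, and a call needed an adjusted p below 0.05 and a change above 1.5-fold. ced-9 minus mev-1 was compared by two-sided exact permutation tests. The pipeline was tested on simulated data.

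Named genes are the 10 members, daf-16, bcl-11 and daf-2, csp-1, ced-13 and mev-1, up to 4 called genes with the largest change in each section of the wider list, and the 5 genes most like egl-1. The members and lists were chosen with earlier results of these data known. daf-2 transcripts averaged 10.05, 9.96 and 10.01 rlog in the triple mutant, the labelled double mutant and daf-2.

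Replicate numbers pair libraries because the labels give them as the batch. Deviations of same-numbered libraries from their group means correlated over genes with a mean r of 0.03 between the labelled double mutant and daf-2, 0.21 between the triple mutant and daf-2, and -0.05 between the triple mutant and the labelled double mutant.

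Alternatives were eBayes without a trend, a fit of only the 2 genotypes compared, a minimum mean of log2(10), median centring, quantile normalization, the replicate block, other fold limits and each library left out in turn. Centring over genes with a mean of at least log2(10) and leaving out batch 4 were chosen after seeing the data.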

Additional observations from a re-analysis of the deposited data

How the results depend on the processing

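ced-9 stayed called against daf-2 in both genotypes, and ced-3 in the triple mutant, under all 20 alternatives run for single genes. The exception for counts was a log2 limit of 1, at which no member was called. rlog values keep no read numbers, so the limits set by depth could not be stated. For the triple mutant against daf-2, members called were 4, and 10 after median centring, 10 after centring over genes with a mean of at least log2(10), 0 at a log2 limit of 1, and 3 to 4 with each library left out. The wider list gave 19, and 73, 63, 2, and 16 to 23 under the same settings, 9 after quantile normalization and 49 with no fold limit. For the labelled double mutant against daf-2, members called were 1, and 9, 5, 0, and 1 to 2 (2 without daf-2 replicate 3), and 4 with no fold limit. The wider list gave 15, and 51, 36, 2, and 12 to 15, 10 after quantile normalization and 33 with no fold limit. Between the triple and the labelled double mutant no member or wider-list gene was called under any alternative. Over all genes, calls against daf-2 went to 2629 in the triple mutant and 2511 in the labelled double mutant at a log2 limit of 1, from 5661 and 5517, and to 11465 and 8574 after median centring. Without batch 4, 314 genes differed between the triple and the labelled double mutant, against 3 with it.

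With the replicate block, members called were 4, 1 and 0, the wider list 19, 14 and 0, and all genes 5769, 5717 and 3, for the triple mutant against daf-2, the labelled double mutant against daf-2, and between the 2. The block changed no call of a member.

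Signs that turned belonged to differences that had not passed the test. egl-1 in the labelled double mutant against daf-2 was -0.14, and 0.29 after median centring, 0.12 after centring over genes with a mean of at least log2(10) and 0.010 after quantile normalization. After quantile normalization ced-1 in that comparison was -0.00033 and ced-7 in the triple mutant against daf-2 was -0.0090. Between the triple and the labelled double mutant ced-7 was 0.015 after median centring and 0.019 after centring over genes with a mean of at least log2(10), and ced-6 ranged from -0.042 (without triple mutant replicate 2) to 0.064 with 1 library left out, and was -0.013 without labelled double mutant replicate 2. The cause of these changes was not tested.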
